A study of Mus musculus with 8 samples.

Results

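The mRNAs described here encode 10 enzymes or enzyme subunits that make and recycle S-adenosylmethionine (SAM) and build polyamines. They were taken by symbol (Mat2a, Mat2b, Ahcy, Ahcyl1, Mtr, Mtap, Odc1, Amd1, Srm and Sms), and all 10 were found among the 38991 gene identifiers of the files. RNA was sequenced from 4 iPKO libraries, in which Prmt5 was to be deleted, and 4 iPHet control libraries, whose name reads as heterozygous, so that the controls need not carry an intact pair of Prmt5 alleles. Both genotypes were male C57BL/6 mouse embryonic stem cells, derived on feeder cells from blastocysts of embryonic day 3.5, of a low passage number and moved to 2i, a ground state medium with inhibitors of differentiation signals. Every culture, control ones included, had received 2 µM 4-hydroxytamoxifen for 48 hours and then fresh medium. The labels name 1 line for each genotype for most of the work, PC4 for iPKO and PC1 for iPHet, so genotype and line cannot be told apart, and they leave out whether each library had a culture of its own. The p-values thus rest on the variation among the 8 libraries, part or all of which may be technical.

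SAM is the methyl donor of nearly all cellular methyltransferases, PRMT5 among them. Each transfer leaves S-adenosylhomocysteine, which inhibits methyltransferases until it is cleaved, and the homocysteine formed is remethylated to methionine. SAM is also decarboxylated to supply the aminopropyl groups of spermidine and spermine, and each such step releases methylthioadenosine, an inhibitor of PRMT5 that is salvaged back to methionine.

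The summed FPKM (fragments scaled to transcript length and library size) ran from 411827 to 417539 in iPKO libraries and from 417672 to 458856 in iPHet libraries. The high sums were those of iPHet 1 and 3 (458856 and 458690), while iPHet 2 and 4 were at 417672 and 421412. The FPKM values given here were not rescaled for this, which matters most for small changes within libraries 1 and 3. The files hold no counts, so the depth is unknown and the number of libraries limits the precision. Prmt5 itself averaged 13.4 ± 1.56 FPKM in iPKO and 62.5 ± 10.4 FPKM in iPHet libraries (SD, n = 4 each), a log2 change of -2.13 (SE 0.13, limma adjusted p = 0.000171) and no iPKO library reached an iPHet one. The 8 stem cell markers summed to 1144 to 1251 FPKM in iPKO and 1150.4 to 1423 FPKM in iPHet libraries, and 2 of them fell (Sox2 and Dppa3, limma adjusted p = 0.00539 and 0.0162, and 0.123 and 0.227 with an estimated correlation within library pairs). The same fit of 8 libraries called 9.53% of all tested genes lower. It did not call the other stem cell markers. Nanog, Klf4 and Tbx3 were at 102%, 99.7% and 112% of iPHet, and Pou5f1, Zfp42 and Esrrb at 87.5%, 85.0% and 87.1%. The 7 feeder fibroblast markers summed to 0.977 to 1.77 FPKM in iPKO and 1.34 to 2.44 FPKM in iPHet libraries, with Postn and Lum at 0 throughout. Of 11 markers of other lineages 4 were tested and Nes fell (limma adjusted p = 0.0239, and 0.187 with an estimated correlation), and the 11 summed to 26.2 to 95.0 FPKM in iPKO and 27.8 to 89.5 FPKM in iPHet libraries. Sox1 went the other way, at a mean of 1.71 FPKM in iPKO and 1.01 FPKM in iPHet libraries. It was not called (limma adjusted p = 0.0524, 0.0306 with the replicate number as a block, and 0.538 with an estimated correlation). The part of these markers in the results below was not tested. The odd-numbered libraries stood apart from the even-numbered ones in both genotypes. The SD over genes of the log2 difference was 0.305 to 0.409 within a genotype between libraries 1 and 3 or 2 and 4, and 0.573 to 0.660 for its other library pairs. The keratin gene Krt8, for example, was at 85.3 and 79.2 FPKM in iPKO 1 and 3 and at 19.1 and 20.4 FPKM in iPKO 2 and 4, against 75.3 and 77.7 FPKM in iPHet 1 and 3 and 17.6 and 17.5 FPKM in iPHet 2 and 4. Values are therefore also given for libraries 1 and 3 and for libraries 2 and 4. The deposited FPKM of Krt8 and of Sox2 lay above the authors' confidence bounds in all 8 libraries, so their levels are less certain. In iPKO 1 the bounds were 56.8 to 61.5 FPKM for Krt8, and 46.1 to 49.9 FPKM for Sox2, which was listed at 68.0 FPKM.

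Across the 10 enzymes the mRNA levels were moderately lower or little different in iPKO cells, and none was called higher. In such bulk samples a lower level in each cell and fewer cells with that level cannot be told apart. Of the 10 tested, 1 fell (Ahcy) and 9 were not called with limma on log2(FPKM + 1) at an adjusted p under 0.05, which called 15.8% of 12462 tested genes in either direction, 9.53% lower and 6.30% higher. That share of the members is near the background. With the replicate number as a block, 4 members were lower (Ahcy, Mat2a, Srm and Odc1) and 0 higher, where that fit called 16.6% of all tested genes lower and 10.9% higher. An odd/even term over the 8 libraries, an alternative chosen after seeing the data, called these 4 and Sms lower, with 22.6% of all tested genes lower. Within libraries 1 and 3 and again within libraries 2 and 4, every iPKO value of 6 members (Mat2a, Ahcy, Mtr, Odc1, Srm and Sms) was below every iPHet value, a pattern that 25.1% of all tested genes had in that direction. The median log2 change was -0.12 over the members and -0.04 over all tested genes. With libraries 1 and 3, and 2 and 4, averaged to give 2 values a genotype, limma called 0 members and 8 genes in all (0.0642%), and 0 members, against 8.93% of all tested genes, had an unadjusted p under 0.05. Any call of a member, another pathway gene or a marker given here thus depends on counting the 8 libraries as separate samples. Prmt5 was not called with these averages (limma adjusted p = 0.190), but was with an estimated correlation within library pairs (0.00204).

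**Figure D1:**
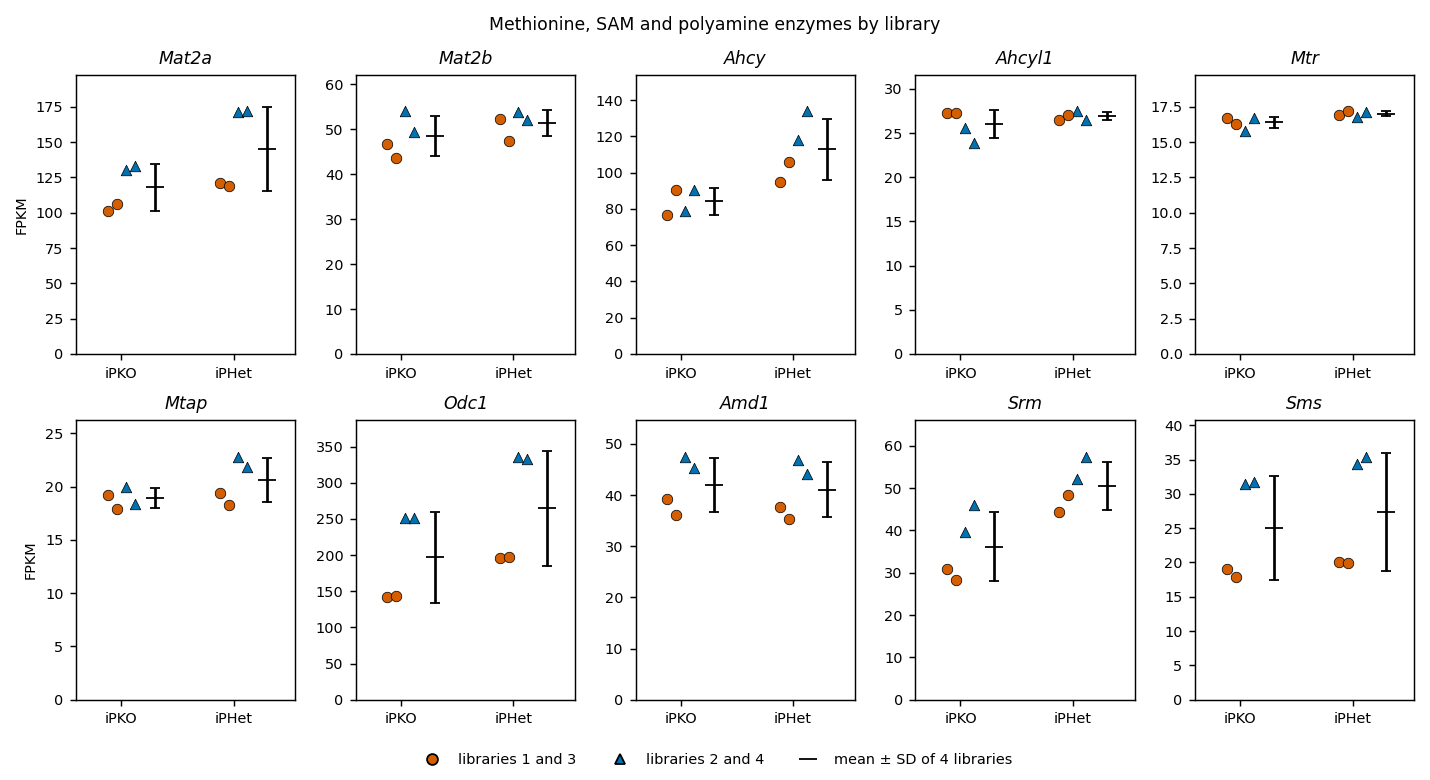
FPKM of each enzyme mRNA (linear axes from 0) in 4 iPKO and 4 iPHet libraries, with circles for libraries 1 and 3, triangles for libraries 2 and 4, and the mean ± SD of the 4 libraries of a genotype at the side. Odc1 and Sms form 2 levels within each genotype, and the iPKO values of Odc1 lie below the iPHet values at both.

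In iPHet cells the order of mean levels, which FPKM gives per transcript length, began with Odc1 at 265 FPKM, Mat2a at 145 FPKM and Ahcy at 113 FPKM. Mat2b (51.4 FPKM), Srm (50.5 FPKM) and Amd1 (41.1 FPKM) followed. Sms (27.4 FPKM), Ahcyl1 (26.9 FPKM), Mtap (20.6 FPKM) and Mtr (17.0 FPKM) were lowest. The order in iPKO cells differed only in that Amd1 (42.0 FPKM) stood above Srm (36.2 FPKM) and Ahcyl1 (26.0 FPKM) above Sms (25.0 FPKM). In iPHet libraries the ranges of Mat2a and Ahcy overlapped, as did those of Mat2b with Srm and Srm with Amd1, and those of Sms with Ahcyl1 and with Mtap. Odc1 was above Mat2a in each of these libraries. The deposited FPKM of Mat2a, Amd1 and Mtr lay below the authors' confidence bounds in all 8 libraries. In iPHet 1 the bounds of Amd1 were 49.0 to 52.6 FPKM and those of Srm 40.4 to 48.6 FPKM, so the place of Amd1 in the order is uncertain. Even the least abundant member, Mtr, had a higher mean than 62.1% of tested genes, and Odc1 than 98.1%.

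Ahcy encodes S-adenosylhomocysteine hydrolase, the enzyme that removes the product of methyl transfer (ENSMUSG00000027597, chromosome 2 from 155059310 to 155074497 of mm10, minus strand). Its mRNA was at 76.6, 78.7, 90.4 and 90.6 FPKM in iPKO libraries 1 to 4, against 94.8, 118, 106 and 134 FPKM in iPHet libraries 1 to 4. No iPKO library reached the lowest iPHet library, a lack of overlap that 15.0% of all tested genes showed as lower in iPKO. The mean fell to 74.3% of the iPHet level. The change was -0.42 on the log2 scale (SE 0.11, limma adjusted p = 0.0438). It was -0.27 in libraries 1 and 3 and -0.57 in libraries 2 and 4, a difference that was not tested. Libraries 1 and 3 alone gave no call (limma adjusted p = 0.0987), and neither did an estimated correlation within library pairs (0.546). Leaving out any library but iPHet 1 ended the call (limma adjusted p of 0.0637 to 0.106), and so did quantile normalization, median scaling and the absence of a filter on low values (0.0660 to 0.0999). The annotated antisense transcript Gm45609 overlaps Ahcy, and strand is not given in the sources used here, so reads of the pair cannot be told apart.

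Ahcyl1 (ENSMUSG00000027893, chromosome 3 from 107663118 to 107696560 of mm10) encodes a protein related to the hydrolase, known as a partner of the inositol trisphosphate receptor and not for the hydrolase reaction. It was at 27.3, 25.6, 27.3 and 23.9 FPKM in iPKO libraries 1 to 4 and at 26.5, 27.5, 27.1 and 26.5 FPKM in iPHet libraries 1 to 4. The groups overlapped and the change was -0.05 (SE 0.06, limma adjusted p = 0.620). In libraries 1 and 3 the iPKO values lay above the iPHet ones and in libraries 2 and 4 below them, an opposition that 16.5% of all tested genes had. Its spread in iPHet libraries was small (26.9 ± 0.457 FPKM, SD, n = 4).

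Mat2a encodes the catalytic subunit of the SAM synthetase of most tissues (ENSMUSG00000053907, chromosome 6 from 72432799 to 72439558 of mm10, minus strand). Its mRNA was at 101 and 106 FPKM in iPKO 1 and 3, against 121 and 119 FPKM in iPHet 1 and 3. It was at 130.2 and 133 FPKM in iPKO 2 and 4, against 171 and 172 FPKM in iPHet 2 and 4. In both sets of libraries iPKO was lower, at 86.4% and 76.9% of iPHet, but the even-numbered iPKO libraries lay above the odd-numbered iPHet ones. Over all 8 libraries the change was therefore -0.29 with an SE of 0.16 and was not called (limma adjusted p = 0.251), whereas the replicate block, at the same change, gave an SE of 0.05 and a limma adjusted p = 0.0197. Mat2b (ENSMUSG00000042032, chromosome 11 from 40679314 to 40695203 of mm10) encodes the regulatory subunit that binds the catalytic one. It was at 48.5 ± 4.42 FPKM in iPKO and 51.4 ± 2.82 FPKM in iPHet libraries (SD, n = 4 each), a change of -0.09 (SE 0.08, limma adjusted p = 0.496). The ratio of Mat2a to Mat2b FPKM was 2.16 to 2.70 in iPKO libraries and 2.31 to 3.30 in iPHet libraries. These ranges overlapped, and so did those within libraries 1 and 3. The ratio was at 2.16 and 2.42 in iPKO 1 and 3, against 2.31 and 2.51 in iPHet 1 and 3. It was at 2.41 and 2.70 in iPKO 2 and 4, against 3.16 and 3.30 in iPHet 2 and 4, where the groups did not overlap. The difference in the ratio was not tested, and its Mat2a values lay below the authors' confidence bounds in all 8 libraries.

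The level of MAT2A mRNA is known in human cells to be set after transcription by the RNA methyltransferase METTL16, which binds hairpins in the 3′ UTR whose loops hold the letters TACAGAGAA (written as DNA). In the principal Mat2a transcript of GENCODE release vM21 (build GRCm38) these 9 letters occurred 5 times in a 3′ UTR of 1494 bases. Of 16479 genes with a 3′ UTR in their principal transcript, 2.15% held the letters at all, and 0 other genes held them as often. The motif was searched on the sense strand and after the values had been seen. The 5 sites are shown with 10 bases on each side and the match in capitals, since they carry the letters that the enzyme is known to recognise.
Mat2a site 1 (chr6:72434235-72434263, minus strand): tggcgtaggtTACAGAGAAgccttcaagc
Mat2a site 2 (chr6:72433451-72433479, minus strand): ccttgtgataTACAGAGAAgtcacagggc
Mat2a site 3 (chr6:72433272-72433300, minus strand): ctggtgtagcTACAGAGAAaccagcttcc
Mat2a site 4 (chr6:72433157-72433185, minus strand): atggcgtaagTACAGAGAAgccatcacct
Mat2a site 5 (chr6:72432938-72432966, minus strand): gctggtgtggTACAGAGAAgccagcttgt
Mettl16 mRNA was at 19.1, 27.9, 17.7 and 25.1 FPKM in iPKO libraries 1 to 4, against 16.8, 18.4, 15.1 and 17.4 FPKM in iPHet libraries 1 to 4. It was higher in iPKO within libraries 1 and 3 and within libraries 2 and 4, with changes of 0.20 and 0.54. The change over all libraries was 0.37 (SE 0.14) and was not called (limma adjusted p = 0.123, and 0.0368 with the replicate block). Whether the levels of Mettl16 and Mat2a are connected was not tested, and gene-level FPKM does not separate spliced from intron-retaining Mat2a transcripts. The annotated transcript Particl runs antisense to Mat2a and overlaps it.

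Mtr (ENSMUSG00000021311, chromosome 13 from 12186542 to 12258113 of mm10) encodes methionine synthase, which remethylates homocysteine with a methyl group from folate. It was the most even of the 10 mRNAs over the 8 libraries, at 16.7, 15.8, 16.3 and 16.7 FPKM in iPKO libraries 1 to 4 and 16.9, 16.8, 17.2 and 17.1 FPKM in iPHet libraries 1 to 4. The groups did not overlap, which 25.1% of all tested genes showed in either direction and 15.0% as lower in iPKO. The mean was nevertheless at 96.4% of iPHet, and the change of -0.05 (SE 0.05) was not called (limma adjusted p = 0.523). Mtap (ENSMUSG00000062937, chromosome 4 from 89137122 to 89181081 of mm10) encodes methylthioadenosine phosphorylase, which starts the salvage of the by-product of polyamine synthesis. It was at 18.9 ± 0.924 FPKM in iPKO and 20.6 ± 2.07 FPKM in iPHet libraries (SD, n = 4 each), and the groups overlapped. Its change was -0.11 (SE 0.08, limma adjusted p = 0.377), made up of -0.02 in libraries 1 and 3 and -0.20 in libraries 2 and 4. The annotated processed pseudogene Gm12607 overlaps Mtap on the opposite strand.

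Odc1 encodes ornithine decarboxylase, which makes putrescine and is a main control point of polyamine synthesis (ENSMUSG00000011179, chromosome 12 from 17544873 to 17551502 of mm10, plus strand). Its mRNA was at 142 and 144 FPKM in iPKO 1 and 3, against 196 and 198 FPKM in iPHet 1 and 3. It was at 252 and 252 FPKM in iPKO 2 and 4, against 336 and 333 FPKM in iPHet 2 and 4. The iPKO level was 72.6% of iPHet in libraries 1 and 3 and 75.3% in libraries 2 and 4, so the ratio between genotypes was much alike while the absolute level differed 1.76-fold between even and odd libraries in iPKO and 1.70-fold in iPHet. The fit over 8 libraries gave a change of -0.43 (SE 0.28) and no call (limma adjusted p = 0.331). With the replicate block the same change had an SE of 0.04 and a limma adjusted p = 0.00462. The annotated snoRNA Gm22748 overlaps Odc1 on the same strand.

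Srm encodes spermidine synthase, which adds the first aminopropyl group to putrescine (ENSMUSG00000006442, chromosome 4 from 148591503 to 148594993 of mm10, plus strand). It was at 30.8, 39.6, 28.3 and 46.0 FPKM in iPKO libraries 1 to 4, against 44.4, 52.1, 48.3 and 57.4 FPKM in iPHet libraries 1 to 4. Only iPKO 4 lay within the iPHet range. The mean of 36.2 ± 8.11 FPKM in iPKO was 71.6% of the 50.5 ± 5.56 FPKM in iPHet libraries (SD, n = 4 each), the lowest percentage among the members. The change of -0.49 (SE 0.16) missed the threshold (limma adjusted p = 0.0681), and passed it with the replicate block (0.0161) and without iPKO 4 (0.0322). Sms (ENSMUSG00000071708, chromosome X from 157443855 to 157492287 of mm10) encodes spermine synthase, which converts spermidine to spermine. It was at 19.1 and 17.9 FPKM in iPKO 1 and 3, against 20.0 and 19.9 FPKM in iPHet 1 and 3. It was at 31.4 and 31.7 FPKM in iPKO 2 and 4, against 34.3 and 35.4 FPKM in iPHet 2 and 4. Both sets of iPKO libraries were thus slightly below iPHet, and the change of -0.12 (SE 0.27) was not called (limma adjusted p = 0.799, and 0.0751 with the replicate block).

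Amd1 (ENSMUSG00000075232, chromosome 10 from 40287458 to 40302188 of mm10) encodes S-adenosylmethionine decarboxylase, the step that commits SAM to polyamines. It was at 39.3, 47.5, 36.1 and 45.3 FPKM in iPKO libraries 1 to 4 and 37.7, 46.9, 35.4 and 44.2 FPKM in iPHet libraries 1 to 4. It was the 1 member with a positive change, 0.03 (SE 0.12, limma adjusted p = 0.878), and its groups overlapped within each set of libraries. Its copy Amd2 was at 0.0336 to 0.111 FPKM in iPKO and 0.0391 to 0.0947 FPKM in iPHet libraries and was not tested. A copy can exchange reads with its parent gene, so the value of Amd2 is uncertain.

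**Figure D2:**
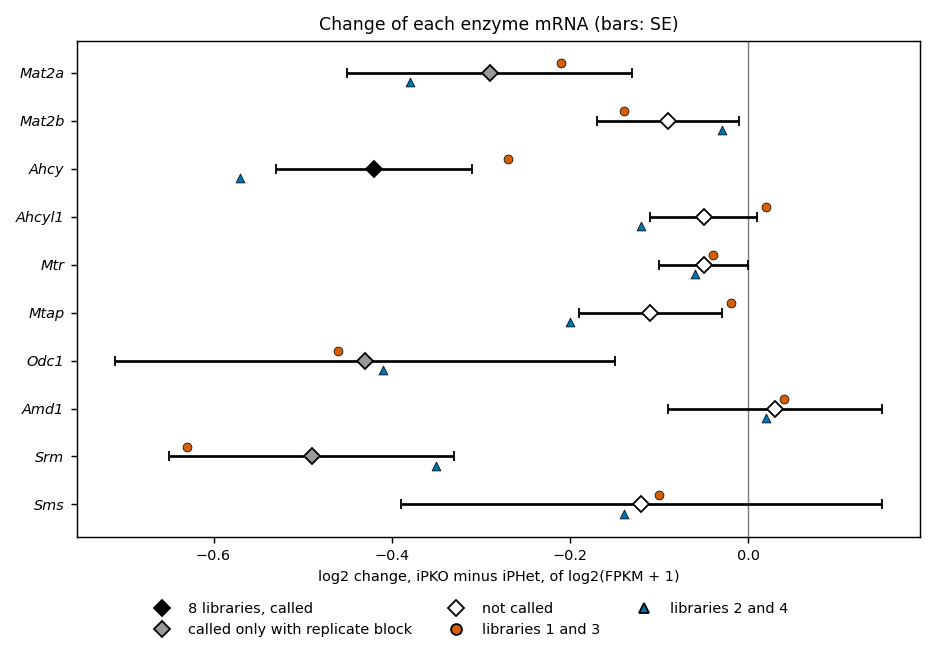
Change of each enzyme mRNA (iPKO minus iPHet, log2 scale), with diamonds and SE bars from the fit of 8 libraries, circles for libraries 1 and 3 and triangles for libraries 2 and 4. A black diamond is a call in that fit and a grey one a call with the replicate block only. The diamond of Amd1 at 0.03 is the only one right of 0, and the points of Odc1 for both sets of libraries lie close to its diamond at -0.43.

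The spread of Odc1 and Sms between odd and even libraries was the widest among the members, with even-numbered levels 1.70 to 1.76 times the odd-numbered ones. Mat2a had ratios of 1.27 in iPKO and 1.43 in iPHet, Amd1 of 1.23 and 1.25, and Srm of 1.45 and 1.18. Mtr (0.983 and 0.997) and Ahcyl1 (0.908 and 1.01) showed little of it. What separates the odd from the even libraries is not given in the labels, and its part in the values was not tested.

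For 3 members the deposited FPKM lay below the authors' own confidence bounds in all 8 libraries (Mat2a, Amd1 and Mtr), and for Odc1 it lay above them in 5. In iPKO 1, for instance, Amd1 was listed at 39.3 FPKM with bounds of 50.7 to 54.3 FPKM, and in iPHet 1 at 37.7 FPKM with bounds of 49.0 to 52.6 FPKM. Such values made up 21.7% to 29.1% of the genes at 1 FPKM or more in a library. Levels of these members are thus less certain than the spread between libraries shows. With the midpoint of the bounds in place of FPKM, an alternative chosen after this was seen, the changes were -0.27 for Mat2a, 0.06 for Amd1, -0.07 for Mtr and -0.45 for Odc1.

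The 300 bases around the start sites, from 250 before to 50 after, were read from RefSeq on GRCm38.p6 for 9 members with 12 start sites. They were searched on both strands for the E-box CACGTG, which MYC-family factors bind, and for TGATGNAA, a core of elements bound by ATF4 (no matches overlapped). Srm, which was also called lower with the replicate block, had no entry. Of the 12 windows 1 held an E-box, the first of 2 Sms windows, and 0 held the ATF4 core, against 7.15% and 3.97% of 32851 promoters in the table. The windows of the other 3 members called lower with the block and the Sms window with the match are shown, 5′ to 3′ on the gene's strand, with the match in capitals.
Mat2a promoter (chr6:72439507-72439806, minus strand): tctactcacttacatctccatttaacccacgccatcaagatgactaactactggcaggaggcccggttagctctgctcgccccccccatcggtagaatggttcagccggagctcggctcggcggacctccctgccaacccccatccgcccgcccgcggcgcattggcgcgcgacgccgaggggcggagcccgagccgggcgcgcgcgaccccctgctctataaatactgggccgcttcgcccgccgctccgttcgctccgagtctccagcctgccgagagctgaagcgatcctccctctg
Ahcy promoter (chr2:155074448-155074747, minus strand): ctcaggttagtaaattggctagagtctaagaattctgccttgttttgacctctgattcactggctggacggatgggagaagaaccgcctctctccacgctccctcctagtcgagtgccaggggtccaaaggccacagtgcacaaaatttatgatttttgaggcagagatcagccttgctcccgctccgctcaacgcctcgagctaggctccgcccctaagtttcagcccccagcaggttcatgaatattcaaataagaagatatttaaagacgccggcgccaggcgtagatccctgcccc
Odc1 promoter (chr12:17544623-17544922, plus strand): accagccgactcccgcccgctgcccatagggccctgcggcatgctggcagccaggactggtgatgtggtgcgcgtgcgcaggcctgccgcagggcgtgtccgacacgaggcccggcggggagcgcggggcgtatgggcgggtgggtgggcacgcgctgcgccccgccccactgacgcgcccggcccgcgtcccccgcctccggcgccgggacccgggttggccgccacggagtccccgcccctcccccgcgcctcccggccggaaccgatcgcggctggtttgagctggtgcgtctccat
Sms promoter (chrX:157492238-157492537, minus strand): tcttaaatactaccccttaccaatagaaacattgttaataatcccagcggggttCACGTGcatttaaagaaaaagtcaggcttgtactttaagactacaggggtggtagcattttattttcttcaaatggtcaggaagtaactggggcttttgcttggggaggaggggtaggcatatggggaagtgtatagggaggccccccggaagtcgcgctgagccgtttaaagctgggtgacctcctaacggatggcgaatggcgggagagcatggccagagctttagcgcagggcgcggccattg
In the Sms window the E-box began 196 bases before the start site. Such a match is a description of these letters only.

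The other genes of the pathway were 36 listed genes, of which 35 were in the files and 24 were tested. Of these 1 rose and 2 fell, where 6.30% of all tested genes rose and 9.53% fell, and the median log2 change was -0.05. With the replicate block 5 were higher and 3 lower, where that fit called 10.9% of all tested genes higher and 16.6% lower. The counts of the fit of 8 libraries are near the background.

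Enoph1 and Adi1, which encode consecutive enzymes of the methylthioadenosine salvage pathway that begins with Mtap, changed in opposite directions. Enoph1, the enolase-phosphatase, was at 40.4, 46.2, 41.2 and 56.5 FPKM in iPKO libraries 1 to 4, against 28.3, 29.0, 29.6 and 29.7 FPKM in iPHet libraries 1 to 4. It rose 1.58-fold, by 0.63 on the log2 scale (SE 0.10, limma adjusted p = 0.00679). Adi1, the dioxygenase that acts on the product of that enzyme, was at 24.8, 26.1, 24.9 and 25.2 FPKM in iPKO libraries 1 to 4, against 33.6, 32.6, 32.7 and 30.7 FPKM in iPHet libraries 1 to 4. It fell to 77.9% of the iPHet level, a change of -0.35 (SE 0.05, limma adjusted p = 0.00453). For each gene the groups did not overlap, which 25.1% of all tested genes showed in either direction. Both calls held without any 1 library. Neither held with an estimated correlation within library pairs (limma adjusted p = 0.241 for Enoph1 and 0.199 for Adi1). Of the other salvage enzymes, Mri1 was at 10.6 ± 1.76 FPKM in iPKO and 13.4 ± 0.296 FPKM in iPHet libraries (SD, n = 4 each) and was not called (limma adjusted p = 0.0765), and neither was Apip (0.411).

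Slc25a26, the carrier that brings SAM into mitochondria, was at 6.48, 6.85, 7.25 and 6.71 FPKM in iPKO libraries 1 to 4, against 7.69, 9.00, 8.29 and 10.5 FPKM in iPHet libraries 1 to 4. It fell to 77.0% of iPHet, a log2 change of -0.33 (SE 0.09, limma adjusted p = 0.0479). Its groups did not overlap, which 15.0% of all tested genes showed as lower in iPKO. Leaving out any library but iPHet 1 ended the call (limma adjusted p up to 0.112), and so did the midpoint of the bounds (0.0662), median scaling, quantile normalization and the absence of a filter on low values. Cth, the enzyme that releases cysteine from cystathionine, was at 112 ± 9.16 FPKM in iPKO and 93.1 ± 6.88 FPKM in iPHet libraries (SD, n = 4 each). Its groups did not overlap, and the change of 0.27 (SE 0.08) was not called in the fit of 8 libraries (limma adjusted p = 0.0593) but was with the replicate block (0.0104), median scaling, quantile normalization or the odd/even term. The block also called Mtrr (0.19), the reductase that reactivates methionine synthase, and Ahcyl2 (0.18) as higher, and Adk (-0.26), the kinase that removes the adenosine formed by the hydrolase, as lower, with log2 changes in brackets and limma adjusted p of 0.0244, 0.0283 and 0.0269.

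Of 12 other polyamine genes tested 0 were called with limma, with or without the replicate block, and 1 without it and 2 with it had an unadjusted p under 0.05, against 31.5% and 41.9% of all tested genes. The odd/even term over 8 libraries, chosen after seeing the data, called Azin1 as lower and Atp13a2, a polyamine transporter gene, as higher. That fit called 22.6% of all tested genes lower, and 1908 of the 12462 higher, so these 2 calls do not stand out. Azin1, an antizyme inhibitor that frees ornithine decarboxylase, was at 35.0 ± 2.34 FPKM in iPKO and 46.6 ± 10.4 FPKM in iPHet libraries (SD, n = 4 each), a change of -0.38 (SE 0.15, limma adjusted p = 0.123). Oaz1, an antizyme that directs ornithine decarboxylase to degradation, was at 174 ± 20.8 FPKM in iPKO and 176 ± 18.2 FPKM in iPHet libraries (SD, n = 4 each, limma adjusted p = 0.920). Its value in iPHet 2, 157 FPKM, lay above the authors' bounds of 90.0 to 99.3 FPKM, and with the midpoint of the bounds its change was 0.16 in place of -0.02, so its level in that library is uncertain. Eif5a, the translation factor that carries the spermidine-derived residue hypusine, was at 656 ± 67.0 FPKM in iPKO and 779 ± 225 FPKM in iPHet libraries (SD, n = 4 each, limma adjusted p = 0.527).

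**Figure D3:**
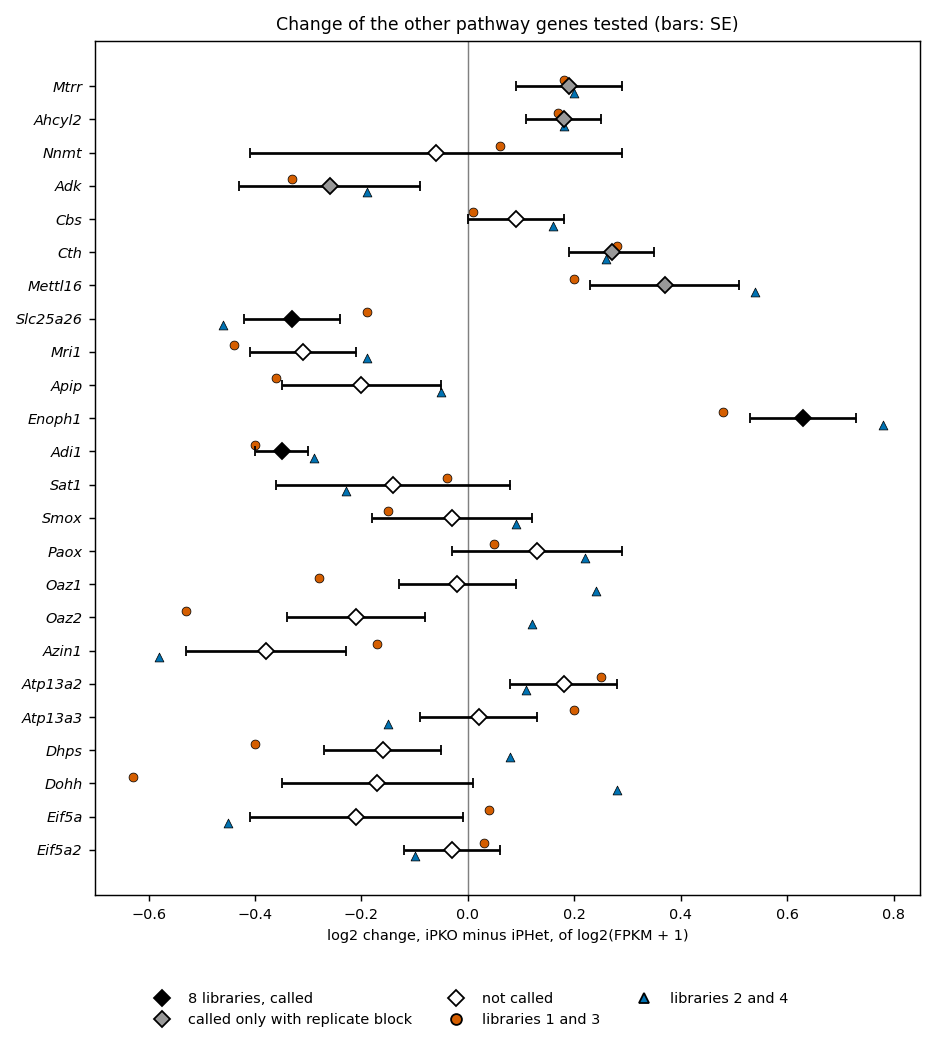
Change of the 24 other pathway genes tested (iPKO minus iPHet, log2 scale), with diamonds and SE bars from the fit of 8 libraries, circles for libraries 1 and 3 and triangles for libraries 2 and 4 (Nnmt did not pass the filter in libraries 2 and 4). Enoph1 at 0.63 and Adi1 at -0.35 are called and lie on opposite sides of 0.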

How the data were processed

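Libraries of 4 iPKO and 4 iPHet samples were made with an Illumina TruSeq kit and sequenced as paired reads, per the labels' protocols. For each gene and library the authors deposited an FPKM value and its lower and upper bounds, per the file headers. The submitters' processing notes name Trimmomatic and the build mm10. No source used here gives the aligner, the program that computed FPKM or any scaling between libraries. Each file held 39013 rows, and rows of 19 identifiers at more than 1 locus were summed. The files hold no counts, so the depth is unknown.

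Tested genes averaged 1 FPKM or more in at least 1 genotype. Linear models were fitted to log2(FPKM + 1) in R 4.3.3 (limma 3.58.1, prior variance following the mean level), and p-values were adjusted by Benjamini-Hochberg over all 12462 genes. The pseudocount understates changes of low genes. Tables were handled in data.table (1.17.8). The procedure was tested on simulated data. The genes named by rule were all members, the called genes of the pathway lists and Prmt5. Further genes of these lists, named after their values were seen, are Cth, Mtrr, Ahcyl2, Adk, Mettl16, Mri1, Apip, Azin1, Oaz1, Oaz2, Eif5a, Dohh, Atp13a2, Atp13a3 and Amd2. Among the markers they are Krt8, Sox1, Nanog, Klf4, Tbx3, Pou5f1, Zfp42 and Esrrb. The members and lists were chosen with earlier results of these data known. Azin2 was not found by symbol.

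Replicate numbers are in the labels, but their meaning is not. Deviations from the group means correlated between same-numbered iPKO and iPHet libraries at 0.104, 0.162, 0.204 and 0.107, all above the limit of 0.1. The numbers were therefore taken as pairs in the replicate block, an alternative fit whose pairing comes from the data. The main fit of 8 libraries had no block. The other odd with odd and even with even pairs gave 0.0770 to 0.124, with iPKO 4 nearer to iPHet 2 (0.124) than to its own number, and odd with even pairs gave -0.205 to -0.0579. The correlations thus follow the odd and even sets about as well as the numbers. Alternatives covered pseudocount, filter, scaling, the replicate block, each library left out, averages of libraries 1 and 3 and of 2 and 4, an odd/even term and the midpoint of the bounds.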

Additional observations from a re-analysis of the deposited data

Results flagged for a closer look

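Among the members and the other pathway genes tested, 5 were separated in opposite directions in the odd-numbered and the even-numbered libraries, every iPKO value being on one side of every iPHet value in one set and on the other side in the other set. The difference between the sets was not tested, and 16.5% of all tested genes had this pattern. The iPKO level of Ahcyl1 was 102% of iPHet in libraries 1 and 3 and 91.7% in libraries 2 and 4. Oaz1 was at 82.3% and 118%, Oaz2, another antizyme, at 68.5% and 109%, Dohh, the hydroxylase of hypusine synthesis, at 63.1% and 123%, and the polyamine transporter gene Atp13a3 at 115% and 89.9%, in the same order of libraries. The deposited FPKM lay outside the authors' bounds in 8 libraries for Dohh and in 1 each for Oaz1 (iPHet 2) and Atp13a3 (iPHet 4), so these percentages are less certain.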

How the results depend on the processing

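The sign of the change of 7 members (Mat2a, Mat2b, Ahcy, Mtr, Mtap, Odc1 and Srm) and of Prmt5 was the same under each of the 22 alternatives, while Ahcyl1, Amd1 and Sms, which the fit of 8 libraries did not call, came out at 0 or on the other side in some. In this balanced design the replicate block, the odd/even term and the estimated correlation could not alter the change. Averaging pairs hardly could, so the alternatives are not separate checks of the sign. Prmt5 stayed at -2.13 but was not called with pair averages (limma adjusted p = 0.190) or with these and an odd/even term (-2.13, 0.0991). It was called with an estimated correlation within pairs (limma adjusted p = 0.00204). The pair averages with an odd/even term over protein-coding genes also called it (0.0175). The number of members called was 0 with no filter, quantile normalization or median scaling (2 at an unadjusted p under 0.05 each), 0 with pair averages and with an estimated correlation within pairs (0 unadjusted each), and 0 with pair averages and an odd/even term, over all or over protein-coding genes (3 unadjusted each). It was 4 with the replicate block, 5 with an odd/even term over 8 libraries (chosen after seeing the data, adding Sms), 3 in libraries 1 and 3 alone, 4 in libraries 2 and 4 alone, and 0 to 1 with each library left out in turn. Called over all tested genes were 3427 with the block, 4729 with the odd/even term, 5700 in the odd and 4932 in the even libraries, 52 with the estimated correlation, 8 with pair averages, 8 with their odd/even term and 1 over protein-coding genes, and 1264 to 1416 with each library left out. Other pathway genes called were 8, 11, 14 and 13 in the first 4 of these fits, 0 with the estimated correlation (3 unadjusted), 0 with pair averages (2 unadjusted), and 0 with their odd/even term over all or protein-coding genes (2 and 4 unadjusted). The fits of odd or of even libraries alone called far more genes of any kind than the fit of 8 libraries, which called 1973. Their counts of members and other pathway genes are thus no result about these genes. With the block all other calls of members and pathway genes kept their side of the threshold. If libraries 1 and 3, or 2 and 4, share a culture, fits that count them separately give p-values that are too small. The absence of counts limits what can be said of precision within a library.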
